A study of Mus musculus with 11 samples.

Results

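Type II cadherins were followed in J-RGCs, a direction-selective type of mouse retinal ganglion cell (RGC), from Tbr1 knockout (KO) and control (WT) retinas. The members were taken by gene symbol, and all 10 symbols (Cdh6, Cdh7, Cdh8, Cdh9, Cdh10, Cdh11, Cdh12, Cdh18, Cdh20 and Cdh22) were present among the 24421 genes of the count files. Of these, 7 passed the filter on low counts and were tested, and Cdh7, Cdh9 and Cdh22 did not. The Tbr1 product belongs to the T-box transcription factors. The 6 KO libraries came from 4 animals, KO a (libraries 1 and 2), KO b (3 and 4), KO c (5) and KO d (6), and the 5 WT libraries from 4 animals, WT a (library 1), WT b (2 and 3), WT c (4) and WT d (5). Both genotypes were on a mixed C57BL/6 and CD1 background and were taken at postnatal day 4 to 5. In both, a transgenic line marked the J-RGCs with green fluorescent protein, and each library was made from 1 pool of 100 sorted cells. Which part of Tbr1 was removed, and in which cells, was not given in the sources used here.

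Classical cadherins are calcium-dependent adhesion proteins that bind partners on the opposing membrane through their outermost extracellular domain, EC1, and connect inside the cell to catenins and actin. The type II members carry a pair of tryptophans at the start of EC1 that insert into the partner molecule, where type I members use a single one. Different neurons express different combinations of type II cadherins, and in mouse retina Cdh8 and Cdh9 are known to steer types of bipolar cell to separate synaptic layers, while Cdh6 marks a group of ON-OFF direction-selective ganglion cells.

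The start of EC1 is shown for the 6 members with the highest mean level or with no overlap between genotypes, because this stretch holds the feature that defines the family. Each sequence is 60 bases of coding sequence from a GENCODE M21 transcript, 5′ to 3′, beginning with the first codon after a basic residue, and capitals mark the codons of the tryptophan pair.
Cdh8: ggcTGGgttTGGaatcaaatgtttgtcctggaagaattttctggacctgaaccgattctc
Cdh20: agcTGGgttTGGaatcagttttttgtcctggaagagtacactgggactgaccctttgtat
Cdh6: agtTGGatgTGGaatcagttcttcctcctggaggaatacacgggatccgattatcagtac
Cdh10: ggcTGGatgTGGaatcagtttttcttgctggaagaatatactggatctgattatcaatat
Cdh18: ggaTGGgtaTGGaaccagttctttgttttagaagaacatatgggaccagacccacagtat
Cdh11: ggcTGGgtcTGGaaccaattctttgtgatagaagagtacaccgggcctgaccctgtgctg
The motif TGGNNNTGG was found in frame in all 10 members. Over these 60 bases Cdh20 differed from Cdh8 at 17 positions (71.7% identity), Cdh11 at 18 and Cdh10 at 21, while Cdh6 differed at 25 (58.3%). Over all 45 pairs of members, the longest run of identical bases between their transcripts was 48, between Cdh6 and Cdh20, and it was 25 between Cdh8 and Cdh6. Whether reads with mismatches were placed on another member was not tested. The read length was not given in the sources used here.

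Reads counted over genes ranged from 8609845 to 34718693 per library, and levels are given as CPM, a gene's counts relative to the library total, after TMM scaling of counts summed per animal. Transcripts of pan-RGC markers summed to 19600 to 21300 CPM in KO animals and 18800 to 22100 CPM in WT animals, a sum made up largely of Nefl, Tubb3 and Gap43. Of the 15 single markers, all tested, 0 were called by edgeR's quasi-likelihood test with Benjamini-Hochberg adjustment, and at an unadjusted p under 0.05 there were 2 higher and 4 lower in KO (Pou4f1, Pou4f2, Thy1 and Isl1), where 3.4% of all tested genes reached this at higher and 3.7% at lower levels. Pou4f2, a transcription factor of ganglion cells, averaged 163 ± 37.7 CPM in KO animals and 282 ± 12.8 CPM in WT animals (SD, n = 4 each; edgeR adjusted p = 0.0681), and Thy1, a surface protein of ganglion cells, 316 ± 42.5 CPM in KO animals and 418 ± 35 CPM in WT animals (edgeR adjusted p = 0.355). For both, the KO animals lay below all WT animals, as they did for Cdh8, and the part of these differences in the cadherin levels was not tested. Jam2, the gene that J-RGCs are known by, averaged 107 ± 21.5 CPM in KO animals and 528 ± 85.6 CPM in WT animals (SD, n = 4 each). Tbr1 was still counted in KO animals, at 94.2 to 145 CPM, against 155 to 193 CPM in WT animals, and since counts per gene take in any exons that remain, this does not check the genotype labels. Libraries from 1 animal are separate pools of that animal, and no more is said in the labels of how animals were raised or paired. The reads carried no molecular identifiers, so a limit drawn from a count of 0 covers counting error only.

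**Figure D1:**
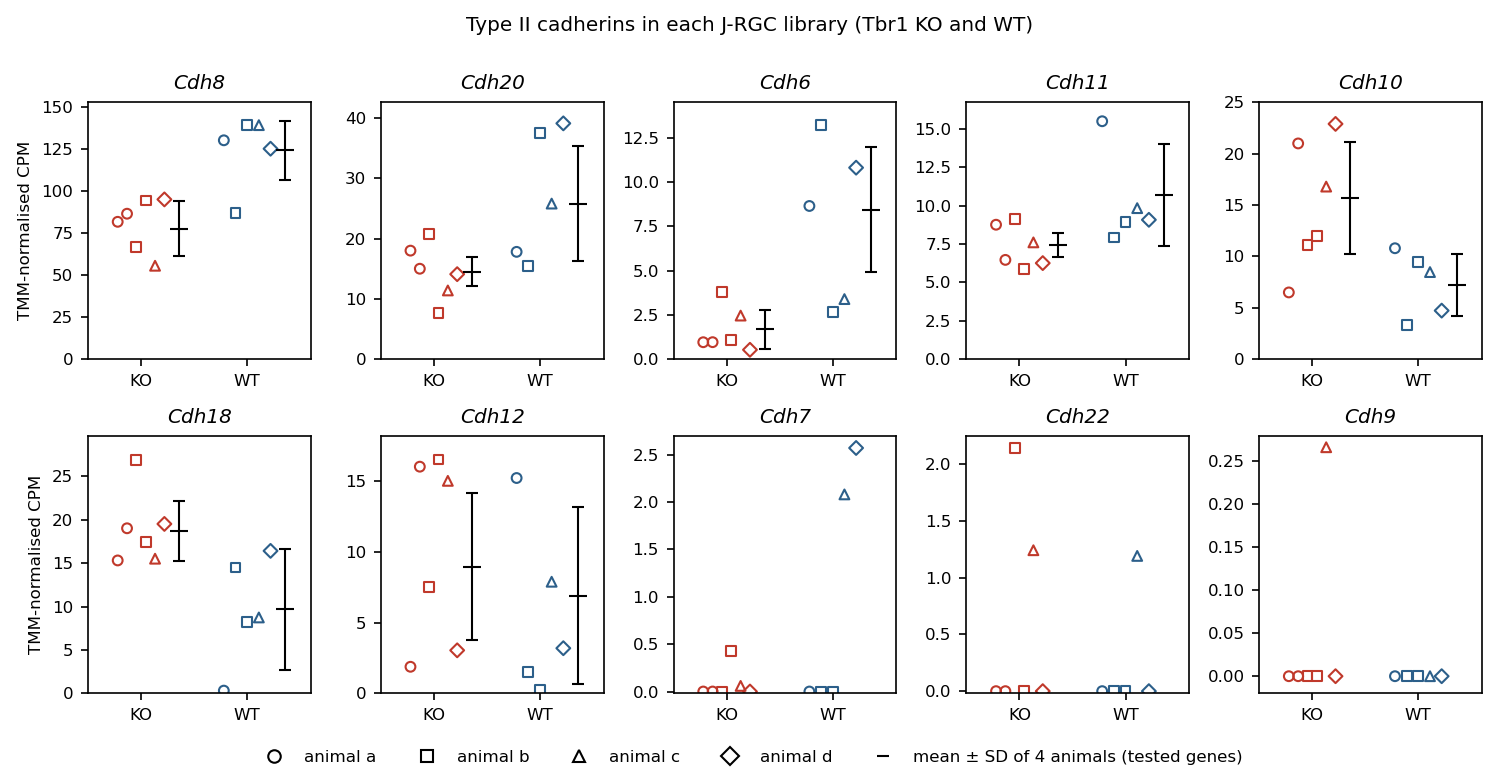
Level of each type II cadherin in every library, in TMM-normalised CPM on a linear axis that differs between panels, with KO libraries (red) left of WT libraries (blue), marker shapes for the animal, and bars for the mean ± SD of 4 animals in the 7 tested genes. The KO libraries of Cdh8 sit between 55.5 and 94.9 CPM, and 1 of the 5 WT libraries, at 87.0 CPM, lies inside that range.

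Cdh8 was the most abundant type II cadherin in both genotypes, and its level was lower in every KO animal than in any WT animal. It stood at 83.1, 76.8, 55.5 and 95 CPM in KO animals a to d, against 131, 98.8, 139 and 126 CPM in WT animals a to d. The closest animals were KO d and WT b, 3.86 CPM apart, which is less than the SD within either genotype. This gave a log2 fold change of -0.67 ± 0.18 (SE), a KO level 0.628 times that of WT, with a 95% interval from 0.481 to 0.821 times. With the quasi-likelihood test of edgeR and Benjamini-Hochberg adjustment over 13957 genes, the adjusted p was 0.272, so Cdh8 did not pass the threshold of 0.05.

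Between pools the picture was less separated. The pools of WT animal b gave 87.0 and 139 CPM of Cdh8, a 1.6-fold difference between cells of the same animal, and those of KO animal b gave 66.8 and 94.2 CPM. The pool at 87.0 CPM lay below KO libraries 4 and 6, at 94.2 and 94.9 CPM. KO animal c, which had the lowest Cdh8, also had the highest summed level of photoreceptor markers, 1300 CPM against 69.7 to 353 CPM in the other KO animals and 76.9 to 387 CPM in WT animals. Without that animal the log2 fold change of Cdh8 was -0.53, with the other 3 KO animals all below WT animals. In bulk pools such as these, fewer cells that express a gene and less RNA per cell cannot be told apart.

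Cdh8 (GRCm38 chromosome 8, 99024471 to 99416471, minus strand) shares 23 bases of exon with Gm15679, which runs in the other direction, and whether reads were counted by strand was not given in the sources used here. Gm15679 itself had 52 counts over the KO animals and 58 over the WT animals, while Cdh8 had 12917 counts over the KO animals and 15852 over the WT animals. The promoter window of Cdh8 is shown because Cdh8 is the member the study of these samples named and Tbr1 is a transcription factor. It is the RefSeq window of GRCm38.p6 at chr8:99416422-99416721, minus strand, with 250 bases before and 50 after the start site.
Cdh8 promoter: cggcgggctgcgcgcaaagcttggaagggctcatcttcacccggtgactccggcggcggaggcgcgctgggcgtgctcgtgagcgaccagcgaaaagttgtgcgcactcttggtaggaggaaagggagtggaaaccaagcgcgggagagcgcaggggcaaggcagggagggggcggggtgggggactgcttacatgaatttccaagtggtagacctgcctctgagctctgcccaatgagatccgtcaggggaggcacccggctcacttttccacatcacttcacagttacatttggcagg
The T-box core GGTGTGA, searched on both strands, does not occur in these letters. It occurs in 3.98% of all 32851 promoter windows of this length and in 1 of the 11 windows that 9 members have, that of a Cdh7 start site, 36 bases upstream of it; no more than the presence of the letters is stated here.

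Cdh20, a type II cadherin close to Cdh8 in the sequence above, also had a lower level in each KO animal than in each WT animal. It was at 16.9, 15.7, 11.4 and 14.1 CPM in KO animals a to d, against 17.8, 20.4, 25.9 and 39.2 CPM in WT animals a to d. KO a and WT a were 0.917 CPM apart, and WT d stood well above the other WT animals. Its log2 fold change was -0.83 ± 0.30 (SE), with a 95% interval from -1.48 to -0.18, and the edgeR adjusted p (Benjamini-Hochberg over all genes) was 0.534. Without WT animal d the log2 fold change was -0.55. The pools of 1 animal differed 2.72-fold in KO animal b and 2.42-fold in WT animal b, more than the 1.78-fold difference between the genotype means.

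Cdh6 showed the largest fold difference among the tested members, from a low level. It was at 0.958, 2.76, 2.46 and 0.533 CPM in KO animals a to d, against 8.67, 10.9, 3.4 and 10.8 CPM in WT animals a to d. All KO animals lay below all WT animals, although WT c came close to KO b and KO c. Over the animals this rested on 297 counts in KO and 1096 in WT. On the log2 scale the fold change was -2.33 ± 0.69 (SE), with a 95% interval from -3.82 to -0.83, and the edgeR adjusted p (Benjamini-Hochberg over all genes) was 0.350. Within WT animal b one pool held 13.2 CPM and the other 2.68 CPM, and KO library 3, at 3.78 CPM, was above WT libraries 3 and 4.

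Cdh11, a cadherin best known from mesenchymal cells, was at 7.95, 7.90, 7.62 and 6.27 CPM in KO animals a to d, against 15.6, 8.18, 9.87 and 9.11 CPM in WT animals a to d. The genotypes did not overlap, but KO a and WT b were 0.231 CPM apart. A log2 fold change of -0.52 ± 0.36 (SE) was fitted, the 95% interval from -1.30 to 0.26 includes no difference, and the edgeR adjusted p (Benjamini-Hochberg over all genes) was 0.876. WT animal a, with the highest Cdh11, also had the highest summed level of the astrocyte, vascular, microglial and fibroblast markers, 79.0 CPM against 16.4 to 28.9 CPM in the other WT animals and 5.49 to 21.8 CPM in KO animals. Without it the log2 fold change of Cdh11 was -0.28. Among these markers in WT animals, the microglial Cx3cr1 and Csf1r reached 22.2 and 19.6 CPM. The fibroblast marker Col1a1 reached 0.691 CPM in WT animals and Col1a2 was at 0. The part of cells with these markers in the Cdh11 level was not tested.

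Cdh10 was the 1 tested member whose KO animals all lay above the WT animals. It is closely related to Cdh6 and Cdh9. It stood at 11.5, 11.4, 16.8 and 22.9 CPM in KO animals a to d, against 10.8, 4.71, 8.51 and 4.74 CPM in WT animals a to d. KO a and KO b were within 1 CPM of WT a, and the separation came mainly from KO c, KO d, WT b and WT d. The log2 fold change was 1.12 ± 0.40 (SE), a KO level 2.17 times that of WT with a 95% interval from 1.19 to 3.97 times, and the edgeR adjusted p (Benjamini-Hochberg over all genes) was 0.525. The pools of KO animal a gave 6.50 and 21.0 CPM, a 3.22-fold difference that exceeds the one between genotypes.

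Cdh18 was at 16.6, 23.2, 15.5 and 19.5 CPM in KO animals a to d, against 0.323, 13.1, 8.77 and 16.4 CPM in WT animals a to d. WT d overlapped the KO animals, and WT a, with 8 counts, was far below the rest. The log2 fold change of 0.95 ± 0.70 (SE) had a 95% interval from -0.58 to 2.48, and an edgeR adjusted p (Benjamini-Hochberg over all genes) of 0.891. Without WT animal a it was 0.55.

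Cdh12 had the largest difference between pools of 1 animal among the tested members. It stood at 6.79, 10.9, 15.1 and 3.04 CPM in KO animals a to d, against 15.2, 1.24, 7.90 and 3.20 CPM in WT animals a to d, and the genotypes overlapped throughout. The pools of KO animal a gave 1.88 and 16 CPM, an 8.51-fold difference. For Cdh12 the log2 fold change was 0.38 ± 0.70 (SE), and the edgeR adjusted p (Benjamini-Hochberg over all genes) was 0.977. The gene-wise biological coefficient of variation between animals, which is the spread of a gene beyond counting error, was 0.703 for Cdh12, 0.687 for Cdh18 and 0.677 for Cdh6, against 0.190 for Cdh8, and 0.325 to 0.428 for Cdh20, Cdh11 and Cdh10.

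The 3 untested members had no counts in most libraries, while Cdh7 reached 2.57 CPM in WT animals and Cdh22 1.33 CPM in KO animals. Cdh9 was counted in 1 library only, with 9 counts in KO library 5, and had 0 counts over the WT animals, which allows up to 0.0229 CPM. Cdh7 had 9 and 2 counts in KO libraries 4 and 5, against 72 and 82 counts in WT libraries 4 and 5, and 0 in all other libraries. Cdh22 had 74 and 42 counts in KO libraries 3 and 5, against 41 counts in WT library 4. These genes were found in some pools and not in others of the same genotype, so no genotype difference could be read at this depth and number of pools.

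**Figure D2:**
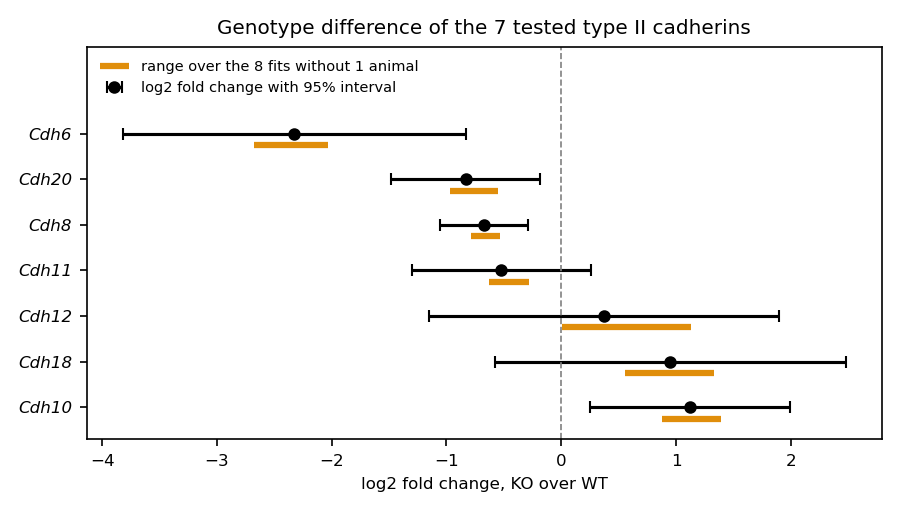
Log2 fold change, KO over WT, of the 7 tested type II cadherins with 95% intervals (black), and the range of the value over the 8 fits that each leave out 1 animal (orange). The intervals of Cdh6, Cdh20 and Cdh8 lie below 0 and that of Cdh10 above it, while those of Cdh11, Cdh12 and Cdh18 cross 0.

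Over all genes, none of the type II cadherins passed the threshold. By edgeR's quasi-likelihood test, adjusted after Benjamini-Hochberg, 0 of the 7 tested members were called, where 0.287% of the 13957 tested genes (40 genes) were called. At an unadjusted p under 0.05 there were 4 members, Cdh6, Cdh8 and Cdh20 lower and Cdh10 higher in KO, where 7.09% of all tested genes reached this, 3.7% lower and 3.4% higher in KO. DESeq2 called Cdh8 (adjusted p = 0.0455) and Cdh6 (adjusted p = 0.0486), in a fit that called 156 genes, or 1.12% of 13896. Limma with voom called 0 members, where it called 0.55% of 13829 genes. Over all 10 members the animals of the genotypes did not overlap for 5, with 4 lower and 1 higher in KO. Among all tested genes 5.06% did not overlap, 2.48% lower and 2.58% higher in KO. The median log2 fold change of the 7 tested members was -0.52, against -0.00071 over all tested genes, and the median size of a log2 fold change over all tested genes was 0.24. The members were chosen with such results known, so these counts describe the family and are no test of it. The 40 calls became 22 without KO animal a, 17 without KO animal b, 25 without KO animal d and 18 without WT animal b.

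Summed over the 10 members, the family stood at 144, 150, 126 and 161 CPM in KO animals a to d, against 199, 157, 207 and 212 CPM in WT animals a to d. KO d was above WT b, so the sums overlapped between genotypes. Within the family, Cdh8 took 57.8%, 51.2%, 44.1% and 58.9% of the reads in KO animals a to d, against 65.6%, 62.8%, 67.3% and 59.4% in WT animals a to d. Cdh10 took 7.58% to 14.2% of the reads in KO animals and 2.24% to 5.45% in WT animals, and Cdh18 took 11.5% to 15.5% in KO animals and 0.162% to 8.34% in WT animals. For Cdh8, Cdh10 and Cdh18 the shares did not overlap between genotypes, with KO d and WT d 0.514 percentage points apart for Cdh8. For Cdh20, by contrast, the shares overlapped, at 8.74% to 11.8% in KO animals and 8.96% to 18.5% in WT animals. Shares are parts of a total in which Cdh8 is the largest, so a lower Cdh8 alone raises the shares of the other members. The levels of Cdh18 overlapped, at 15.5 to 23.2 CPM in KO animals and 0.323 to 16.4 CPM in WT animals. The separation in shares is therefore no further result.

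**Figure D3:**
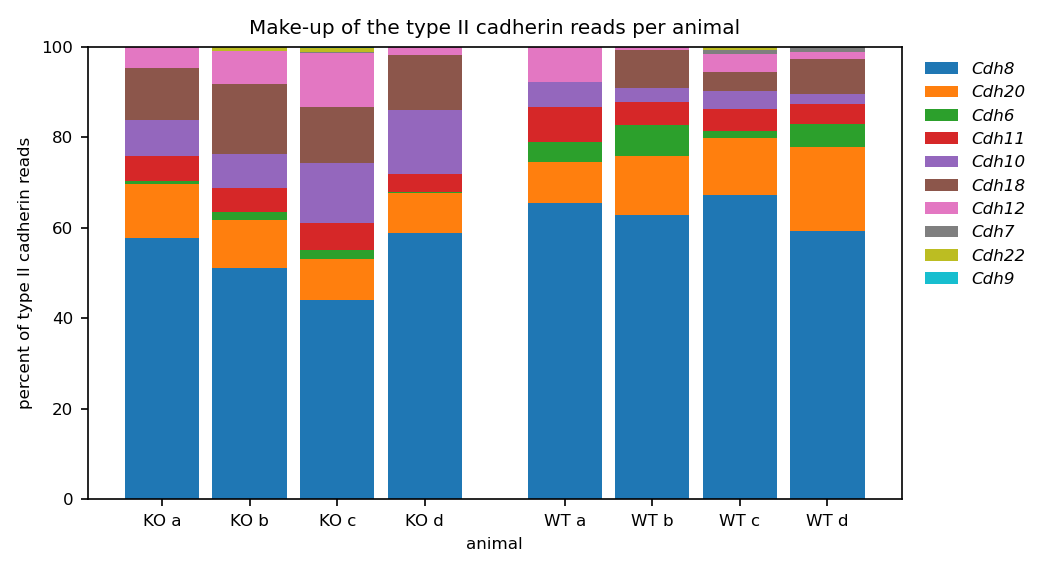
Percent of all type II cadherin reads that each member took in each animal, KO animals left and WT animals right; reads are not corrected for gene length. Cdh8 makes up 44.1% to 58.9% of the reads in KO animals and 59.4% to 67.3% in WT animals.

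The balance of Cdh8 to Cdh10 does not depend on how libraries are scaled. There were 7.22, 6.75, 3.31 and 4.14 reads of Cdh8 for each read of Cdh10 in KO animals a to d, against 12, 21, 16.4 and 26.5 in WT animals a to d. That the animals separate follows from the lower Cdh8 and higher Cdh10 given above and is no further result. Between libraries the ratio overlapped, at 3.31 to 12.5 in KO libraries and 12 to 26.5 in WT libraries, with KO library 1 above WT library 1. For Cdh20 the same ratio was 4.88 to 6.73 in KO animals and 3.21 to 7.32 in WT animals, so the genotypes overlapped in the proportion of Cdh8 to Cdh20.

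Per length of exon, Cdh8 led the family in both genotypes. It averaged 10 ± 2.14 CPM per kb in KO animals and 16 ± 2.25 CPM per kb in WT animals (SD, n = 4 each), and no animal of either genotype had any other member above its Cdh8. In WT animals Cdh20 followed at 4.44 to 9.78 CPM per kb, above all WT values of Cdh18. In KO animals Cdh18 at 3.4 to 5.1 CPM per kb and Cdh20 at 2.84 to 4.21 CPM per kb overlapped. Below these, the order in KO was Cdh10 (1.56 ± 0.545 CPM per kb), Cdh12 (1.42 ± 0.822), Cdh11 (0.835 ± 0.0888) and Cdh6 (0.186 ± 0.122). In WT it was Cdh11 (1.20 ± 0.374 CPM per kb), Cdh12 (1.09 ± 0.987), Cdh6 (0.935 ± 0.389) and Cdh10 (0.717 ± 0.300), where neighbours in the order overlapped in their animals. Cdh10 ranked 4 of the 10 members in KO and 7 in WT, or 3 and 4 when lengths were those of the longest transcript. By that length Cdh18 averaged 6.81 CPM per kb in KO animals and 3.52 in WT animals. Cdh20 then averaged 3.62 in KO animals, at rank 4, and 6.44 in WT animals. The ranges of Cdh18 and Cdh20 above are for exon length only.

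**Figure D4:**
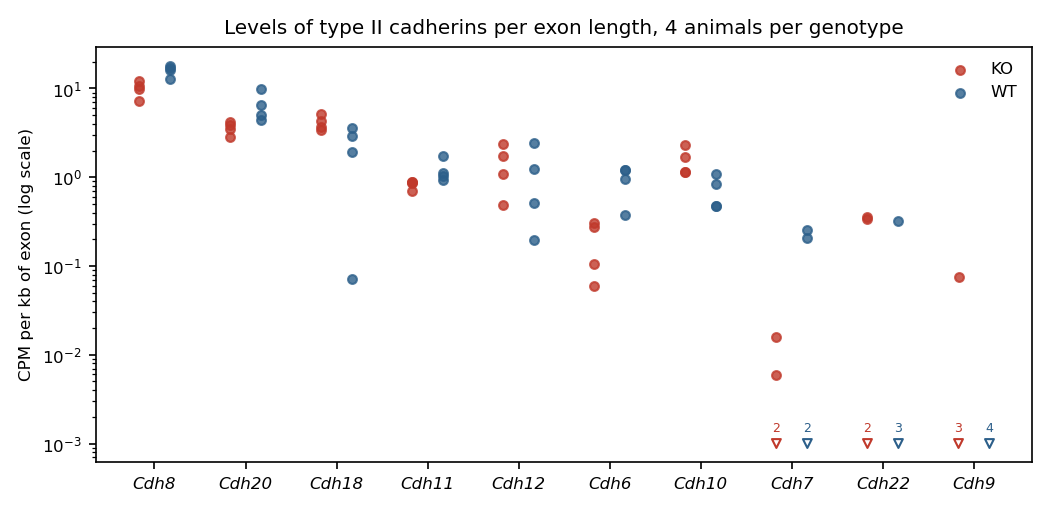
Level per kb of exon in each animal on a log axis, KO (red) left of WT (blue) for each member, ordered by the WT mean; open triangles at the bottom carry the number of animals with no counts and mark no level. Cdh8 sits between 7.18 and 12.3 CPM per kb in KO animals and between 12.8 and 18 CPM per kb in WT animals.

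Among genes of at least 16 CPM, those whose profile over the 8 animals lay nearest to Cdh8 were Gpx3, a secreted glutathione peroxidase, Crlf2, a cytokine receptor subunit, Lasp1, an actin-binding protein, Ap4s1, an adaptor complex subunit, and Gng4, a G-protein gamma subunit. The root mean square difference of their centred log2 CPM from that of Cdh8 was 0.138, 0.153, 0.153, 0.179 and 0.182, where the median of 7994 genes was 0.496. Gng4 averaged 684 ± 111 CPM in KO animals and 1050 ± 87.9 CPM in WT animals (SD, n = 4 each). The genes were picked for likeness to Cdh8, so their lower levels in KO follow from that choice and are no further result. Of the tested type II members, Cdh20 (0.336) and Cdh11 (0.355) lay nearest to Cdh8. Cdh18, with 8 counts in WT animal a, lay farthest (2.10).

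The rest of the cadherin system gave no call over all genes by the same edgeR test, in 26 tested genes of 5 lists, where 3 had an unadjusted p under 0.05 at higher and 1 at lower levels in KO. Over all tested genes 3.4% reached this at higher and 3.7% at lower levels. DESeq2 and voom each called 2 of the 26, Cdh4 and Cdh13, where DESeq2 called 1.12% of all genes (156) and voom 0.55% (76). Of the other type II cadherins Cdh24 was tested (log2 fold change 0.35 ± 0.82, SE), Cdh5 had 33 counts in KO and 0 in WT, and Cdh19 had no counts. Of 3 tested type I members, Cdh4, or R-cadherin, was at 224 ± 35.9 CPM in KO animals and 344 ± 11.6 CPM in WT animals (SD, n = 4 each), and its animals did not overlap. Cdh2, or N-cadherin, averaged 83.4 ± 10 CPM in KO animals and 99.0 ± 8.59 CPM in WT animals, and Cdh15 11.5 ± 3.90 CPM in KO animals and 6.31 ± 2.71 CPM in WT animals. Of the atypical members, Cdh13, which lacks a cytoplasmic tail, had a log2 fold change of 0.61 ± 0.15, and Cdhr1, a photoreceptor cadherin, one of 1.25 ± 0.45. The edgeR adjusted p (Benjamini-Hochberg over all genes) was 0.0783 for Cdh4, 0.187 for Cdh13 and 0.525 for Cdhr1.

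Of 12 tested catenins and other partners 11 had positive and 1 a negative log2 fold change, with a median of 0.11. At an unadjusted p under 0.05 there was 1, Ctnnd2, a p120-family catenin of neurons, at 355 ± 45.9 CPM in KO animals and 279 ± 38.6 CPM in WT animals (SD, n = 4 each), with an edgeR adjusted p of 0.563 (Benjamini-Hochberg). Ctnnb1, or beta-catenin, had a log2 fold change of 0.24 ± 0.14 (SE), Ctnnal1 one of -0.35 ± 0.38 and Vcl, or vinculin, one of 0.29 ± 0.38. Of 8 proteases that mature or cut cadherins, 6 had positive and 2 negative log2 fold changes and none had an unadjusted p under 0.05. Ncstn, a gamma-secretase subunit, had a log2 fold change of -0.30 ± 0.15 (SE), Aph1a, another subunit, one of -0.26 ± 0.23, and Adam10, which sheds cadherin ectodomains, one of 0.16 ± 0.20.

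Markers of other retinal cells differed beside these genes. The 8 amacrine markers summed to 899 to 1110 CPM in KO animals and 529 to 771 CPM in WT animals, with 6 of 7 tested members at positive log2 fold changes. Pax6, which ganglion cells also express, was at 260 to 296 CPM in KO animals and 227 to 238 CPM in WT animals. Among markers that define amacrine cells, Slc32a1 was at 0 to 1.07 CPM in KO animals and 0 to 0.871 CPM in WT animals, and the starburst markers Chat and Slc18a3 were at up to 0.395 CPM in KO animals and up to 2.29 CPM in WT animals. The 5 starburst markers summed to 0 to 2.23 CPM in KO animals and 0.121 to 5.52 CPM in WT animals. Bipolar markers summed to 69.5 to 286 CPM in KO animals and 69.0 to 122 CPM in WT animals, with all 5 tested members positive. Of the untested ones, Grm6 was at 0 to 5.22 CPM in KO animals and 0 to 0.659 CPM in WT animals, with 176 of its 203 KO counts in KO animal c. Trpm1 went the other way, at 0 to 0.484 CPM in KO animals and 0 to 6.75 CPM in WT animals. Photoreceptor markers had 14 of 15 tested members at positive log2 fold changes. Horizontal cell markers summed to 33.4 to 43.7 CPM in KO animals and 17.9 to 27.8 CPM in WT animals. This sum was made up largely of Calb1, at 22.9 to 40.5 CPM in KO animals and 8.68 to 21 CPM in WT animals. The animals of the genotypes overlapped for Onecut1, Onecut2 and Prox1. Müller glia markers summed to 476 to 766 CPM in KO animals and 344 to 470 CPM in WT animals, made up largely of Dkk3, Clu and Apoe. Of the 11 tested Müller glia markers 10 had positive log2 fold changes and 2 were called, Clu and Dkk3, where 0.287% of all tested genes were called. Clu, which encodes the secreted chaperone clusterin, averaged 103 ± 10.2 CPM in KO animals and 60.1 ± 4.71 CPM in WT animals (SD, n = 4 each; edgeR adjusted p = 0.0465, Benjamini-Hochberg). Dkk3, which encodes a secreted Dickkopf-family protein, averaged 265 ± 21.8 CPM in KO animals and 158 ± 26.9 CPM in WT animals (edgeR adjusted p = 0.0495). Over the 8 fits without 1 animal, looked up for both genes after seeing the data, Clu was called in 0 and Dkk3 in 1, the fit without WT animal d. Sfrp2, a secreted Wnt antagonist, went the other way without passing the threshold, at 6.97 ± 3.49 CPM in KO animals and 18.9 ± 2.71 CPM in WT animals (edgeR adjusted p = 0.314), and its animals did not overlap. Rlbp1, a retinoid-binding protein that defines Müller glia, averaged 18.8 CPM in KO animals and 8.65 CPM in WT animals, and its animals overlapped. Of the astrocyte, vascular, microglial and fibroblast markers, 6 were tested and all 6 had negative log2 fold changes, with a median of -1.21. They summed to 5.49 to 21.8 CPM in KO animals and 16.4 to 79 CPM in WT animals. No marker of the other cell types was called. Lhx1, Fezf1, Opn1mw and Col1a2 were at 0 in every library. The part of these cells in the higher Cdh10 and Cdh18 or the lower Cdh6, Cdh8 and Cdh20 was not tested.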

How the data were processed

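RNA was sequenced from 11 libraries of sorted J-RGC pools, 6 KO and 5 WT, prepared by Smart-seq2 with Nextera XT and read from a single end, per the labels' protocols. The authors deposited raw read counts per gene symbol for each library. Trimmomatic 0.32, TopHat2 2.0.10, HTSeq 0.6.1 and the mm10 (GRCm38) build are named, per the submitters' processing notes. The annotation, strand setting and read length were not given in the sources used here. Lines that name no gene held 36.0% to 39.9% of the listed reads and were left out.

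Counts were summed per animal, as the series' design text ties libraries to animals, so 4 KO were set against 4 WT animals. Genes were filtered with filterByExpr (13957 left) and scaled by TMM. Testing was by robust quasi-likelihood in edgeR 4.0.16, under R 4.3.3, and p-values were Benjamini-Hochberg adjusted over all tested genes at a threshold of 0.05. The standard error is the log2 fold change divided by the square root of F. Log2 CPM used a prior count of 0.5. DESeq2 1.42.0 and limma 3.58.1 served as alternatives, beside other scalings, filters and units of replication and leaving out each animal. On simulated data with 13635 genes tested in the 4 against 4 comparison, calls were made for 57% of the 100 genes given a 2-fold change and 84% of the 100 given a 4-fold change, with 5 false calls, and 0 calls were made when nothing was changed. Gene positions and exon lengths came from GENCODE M21 (GRCm38) and promoter windows from RefSeq (GRCm38.p6). The plots were drawn with matplotlib 3.10.9. All 10 members are named, and from each other list the genes past the threshold, then up to 4 with the smallest p, whatever their direction; single markers of cell types were named after their values were seen. The members and lists were chosen with earlier results of these data known. Values of some single list members are not reported here.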

Additional observations from a re-analysis of the deposited data

Results flagged for a closer look

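Among the type II cadherins, Tbr1 and Jam2, with each genotype's 4 animals taken in turn, 2 values stood far from the others of their group. In both cases the other 3 animals were at 0, so that any count at all gives such a gap, and the chance rate of about 1 in 20 groups does not apply. Cdh9 was at 0.267 CPM in KO animal c, from 9 counts, and at 0 in the other 3 KO animals. Cdh22 was at 1.19 CPM in WT animal c, from 41 counts, and at 0 in the other 3 WT animals.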

How the results depend on the processing

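The count of 40 called genes was 39 with RLE scaling and 42 with total counts, and moved to 156 with DESeq2, 84 with libraries as replicates and 76 with voom and a correlation between pools of 1 animal. It was 17 to 44 over the 8 fits without 1 animal (22 without KO a, 17 without KO b, 25 without KO d and 18 without WT b), and 34 without the shallowest library, an alternative chosen after seeing the data. No type II cadherin was called under any of these, except by DESeq2, which called 2 (Cdh6 at a log2 fold change of -2.32 and Cdh8 at -0.67). Over all 18 alternatives Cdh6, Cdh8, Cdh11 and Cdh20 kept negative and Cdh10 and Cdh18 positive log2 fold changes. Cdh12 turned to -0.014 with 1 library per animal, and the cause was not tested. The adjusted p of Cdh8 was 0.0455 to 0.559 over its alternatives, and its log2 fold change -0.78 to -0.53 over the fits without 1 animal. In the fit with the replicate number as a block, which took libraries 1 to 5 of each genotype, 42 genes and 0 members were called. Equal numbers did not deviate together (correlations from -0.029 to 0.14, with 1 of 5 libraries closest to its own number), which cannot exclude a weak shared effect. KO libraries 1 and 2 came from the same animal and WT libraries 1 and 2 from different animals, so equal numbers do not stand for pairs of animals. The count of 5 members with no overlap was 5 with total counts. Per kb of the longest transcript, Cdh8 was at 16.9 in KO and 26.9 in WT, Cdh10 at 4.16 in KO and 1.91 in WT, Cdh11 at 1.32 in KO and 1.89 in WT, and Cdh18 at 6.81 in KO, with Cdh8 still first.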
